A study of Homo sapiens with 6 samples.

Results

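Chromatin at 8 genes that write, copy or remove DNA methylation was examined in ATAC-seq peak lists of RH30, a fusion-positive rhabdomyosarcoma line of myogenic lineage. In ATAC-seq, the Tn5 transposase cuts accessible DNA and joins adapters to it, so that a peak of fragments marks open chromatin. The genes were DNMT1, DNMT3A, DNMT3B, UHRF1, TET1, TET2, TET3 and TDG. Peaks that overlapped between libraries were merged into regions, and a region was assigned to a gene when the summit of its peak with the highest fold enrichment lay in the gene body or within 50 kb of it (GENCODE version 44, hg38). This gave 131 regions of 105569 in all. The 3 vector libraries came from RH30 cells transduced with Cas9 and scramble guides, and the 3 MyoD-deleted libraries came from RH30 cells transduced with Cas9 and guides against MyoD. Both groups are labelled as biological replicates, and the labels do not say whether the MyoD-deleted libraries came from a clone or from a pool of cells. The labels and the study's ATAC-seq methods call the cells RH30, whereas its account of the experiment calls them RH30-SR, which carry an inhibitor of NF-κB, so whether both groups carried that inhibitor cannot be told.

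DNA methylation is placed on cytosines of CpG dinucleotides. DNMT3A and DNMT3B are the de novo methyltransferases, DNMT1 copies the pattern to the new strand after replication, and UHRF1 recognizes hemimethylated DNA and recruits DNMT1. TET1, TET2 and TET3 oxidize methylcytosine, and TDG excises its oxidized products so that base excision repair can restore cytosine. MyoD is a muscle transcription factor that binds E boxes. The study used ATAC-seq to ask whether chromatin is remodeled when MyoD is lost, and it later turned to the methyltransferase genes. From its ATAC-seq reads it reported parts of DNMT3A as less accessible in MyoD-deleted cells, several of them at MyoD binding peaks.

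Values were compared in regions called in all 6 libraries, which were 64 of the 131. The deposited lists hold no read counts. Each peak's fold enrichment and −log10 p gave back the whole number of fragments piled up at its summit, and the summit height was log2 of that pileup over the smallest background of the library, with the median region of that library set to 0. Heights are given on this centred log2 scale, changes are MyoD-deleted minus vector, and calls are limma adjusted p under 0.05 over all 47885 regions tested. A parallel test used the rank of fold enrichment within a library, which also depends on the local background around a peak. In bulk libraries, fewer cells with an open region and a less open region in each cell cannot be told apart. Without centring, the median region was 0.19 higher in MyoD-deleted libraries, and changes are relative to that shift. Libraries held 63140 to 80608 peaks, with smallest backgrounds of 2.22 to 3.41 fragments, and the height of a peak with a pileup near 20 is therefore less certain than that of a tall peak. All 6 muscle genes checked (MYOD1, MYOG, DES, MYMK, CHRNA1, TNNT1) had an open 5′ end in all 6 libraries. Of 6 genes of other lineages, PTPRC, CD3E, KRT18, ALB and PECAM1 had none in any library, and EPCAM had a peak in 2 vector and 3 MyoD-deleted libraries. The region at the 5′ end of MYOD1 was called in all 6 libraries and its height fell by 0.49 ± 0.10 (SE, adjusted p = 0.0021), a call that did not hold without centring (−0.29, adjusted p = 0.093) or by rank (adjusted p = 0.41). A guide-directed break leaves most of the locus in place, so this does not check the deletion.

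Sequences around motifs found within 100 bp of the summits of named regions are shown first, since the results below return to them. Each window is placed on the motif and not on the summit, and some do not reach the summit. A first set comes from regions whose height fell, with the E box letters (CAGCTG or CAGGTG or CACCTG) nearest the summit in capitals. All are 61 bases of the plus strand of hg38.
DNMT3A downstream, chr2:25210420-25210480: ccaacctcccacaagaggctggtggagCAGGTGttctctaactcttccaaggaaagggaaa
DNMT3A intron 4, chr2:25279405-25279465: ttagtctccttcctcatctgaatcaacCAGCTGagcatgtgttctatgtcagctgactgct
DNMT3A intron 3, chr2:25291221-25291281: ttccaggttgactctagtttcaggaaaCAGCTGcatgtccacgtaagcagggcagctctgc
UHRF1 intron 16, chr19:4959400-4959460: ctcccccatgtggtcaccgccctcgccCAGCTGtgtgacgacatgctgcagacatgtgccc
TET3 intron 3, chr2:74032567-74032627: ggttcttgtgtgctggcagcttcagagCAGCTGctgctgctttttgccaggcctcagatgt
A further set comes from regions that were gained or whose height rose, with the AP-1 letters TGACTCA or TGAGTCA in capitals.
DNMT3B upstream, gained, chr20:32752946-32753006: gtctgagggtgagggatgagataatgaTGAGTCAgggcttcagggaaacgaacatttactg
TET1 intron 2, gained, chr10:68594682-68594742: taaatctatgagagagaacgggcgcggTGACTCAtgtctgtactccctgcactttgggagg
TET2 intron 1, gained, chr4:105186802-105186862: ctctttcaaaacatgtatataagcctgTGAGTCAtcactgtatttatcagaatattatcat
TET2 downstream, gained, chr4:105306438-105306498: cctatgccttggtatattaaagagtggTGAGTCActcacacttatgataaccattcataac
DNMT1 upstream, higher, chr19:10206405-10206465: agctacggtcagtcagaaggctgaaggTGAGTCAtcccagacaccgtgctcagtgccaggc
UHRF1 intron 2, higher, chr19:4915303-4915363: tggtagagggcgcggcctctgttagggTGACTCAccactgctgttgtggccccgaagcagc
TET1 intron 6, higher, chr10:68666359-68666419: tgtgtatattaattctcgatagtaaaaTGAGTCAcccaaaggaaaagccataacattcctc

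The 5′ ends of all 8 genes were open in all 6 libraries, and 0 of 8 passed the limma test in either direction, with 0 also at an unadjusted p under 0.05 by height and by rank. These regions cover the 5′ end of the MANE Select transcript, and they are rich in CpG, with a GC content of 59.0% to 82.8% in the surrounding 1 kb. The height at DNMT1 was 2.37, 2.36 and 2.38 in vector replicates 1, 2 and 3, and 2.41, 2.29 and 2.28 in MyoD-deleted replicates 1, 2 and 3. At DNMT3A it was 1.46, 1.74 and 2.31 in vector and 1.92, 1.83 and 1.81 in MyoD-deleted libraries. At DNMT3B it was 1.35, 1.47 and 1.72 in vector and 1.67, 1.56 and 1.68 in MyoD-deleted libraries. The groups overlapped at all 3 methyltransferase genes. The order of mean height was the same in both groups, from DNMT1 through TDG, DNMT3A, DNMT3B, UHRF1, TET3 and TET1 to TET2. In vector libraries the means were 2.37 ± 0.01 for DNMT1, 2.09 ± 0.10 for TDG, 1.84 ± 0.43 for DNMT3A, 1.51 ± 0.19 for DNMT3B, 1.28 ± 0.07 for UHRF1, 0.89 ± 0.34 for TET3, 0.47 ± 0.23 for TET1 and 0.34 ± 0.14 for TET2 (SD, n = 3). The gaps between TDG and DNMT3A, between DNMT3A and DNMT3B, and between TET1 and TET2 were smaller than the larger SD of each pair. By fold enrichment, which also depends on the local background, the order differed. Mean percentiles in vector libraries were 97.6 for TDG, 93.3 for DNMT1, 76.1 for TET1 and 75.0 for DNMT3B. They were 60.8 for TET2, 53.6 for DNMT3A, 27.2 for TET3 and 16.2 for UHRF1. Changes at the 8 genes lay between −0.04 and 0.15, with adjusted p of 0.49 or more by height and 0.23 or more by rank. Without centring, 0 of the 8 passed as well, with a lowest adjusted p of 0.074.

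**Figure D1:**
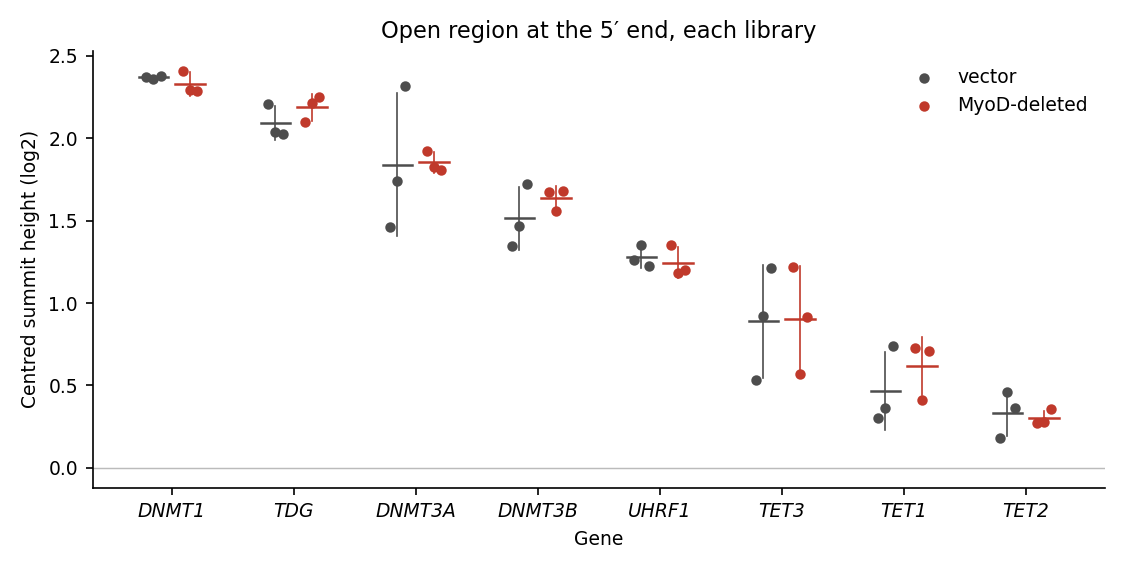
Centred summit height (log2) of the open region at the 5′ end of each gene, as points for the 3 vector and 3 MyoD-deleted libraries, with horizontal lines for means and vertical lines for SD. The groups overlap at all 8 genes, and DNMT1 is highest and TET2 lowest in mean height in both, though not by fold enrichment.

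Height rose at 9 of the 64 tested regions and fell at 6, all of them among the 56 that were not at a MANE Select 5′ end. Over all regions tested, 11.4% rose and 12.8% fell, so the shares of the methylation genes lie near those of the genome. By rank, 6 of the 64 rose, beside 4.12% of all regions, and 0 fell, beside 4.67%. At an unadjusted p under 0.05 in the same limma fit, 11 were higher and 2 were lower by rank, beside 12.5% and 12.7% of all regions. Without centring, 16 rose, beside 24.7% of all, and 1 fell, beside 8.03%. The groups did not overlap at 20 of the 64 regions, beside 37.7% of all regions tested. At a region called by height, groups that do not overlap are no separate support, since the call rests on the same heights. The median change of the 64 was 0.01, and that of all regions was 0.04. Of the 131 regions, 7 were gained, meaning called in 3 of 3 MyoD-deleted and 0 of 3 vector libraries, beside 4.56% of all regions, and 2 were lost, beside 1.78%. The rank count was 3 without vector replicate 2 and 2 without MyoD-deleted replicate 2 or 3. The count of falls by height was 3 without vector replicate 2 or MyoD-deleted replicate 1. The gained count was 14 without vector replicate 1, and the lost count was 4 without vector replicate 2.

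**Figure D2:**
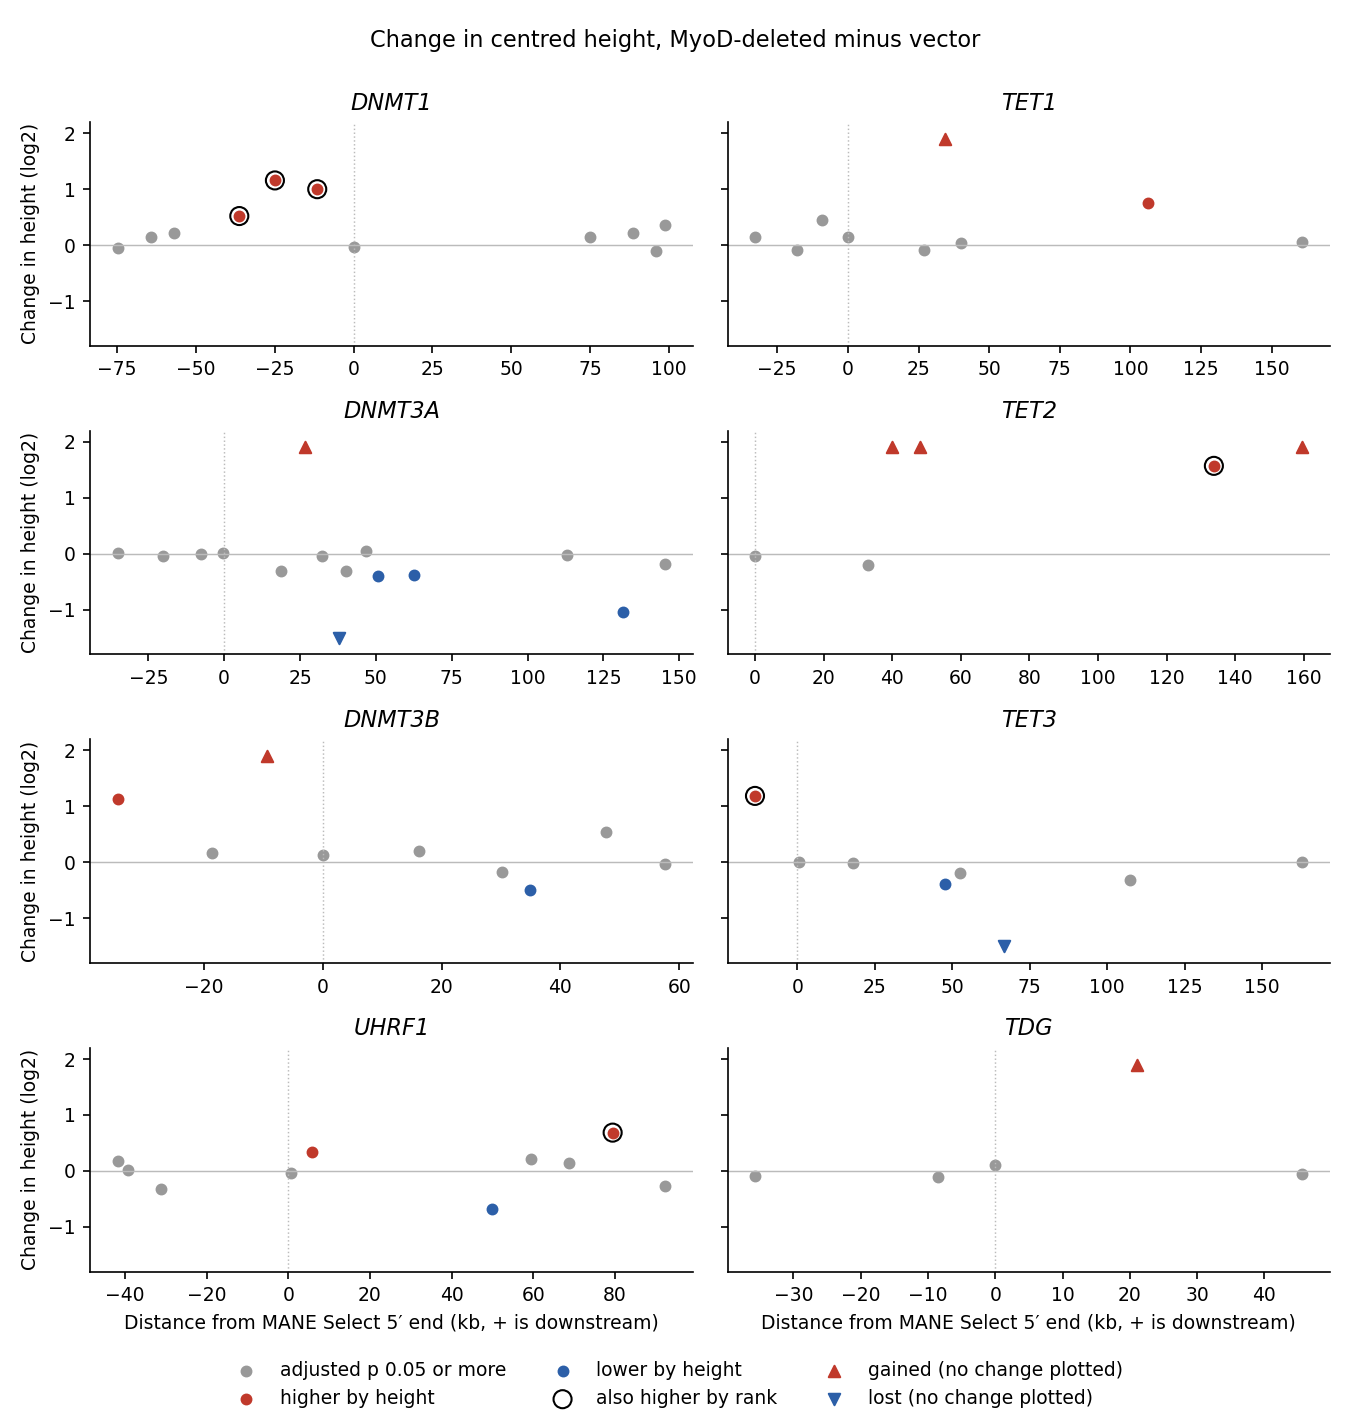
Change in centred height (log2, MyoD-deleted minus vector) of each tested region against the distance of its summit from the MANE Select 5′ end of its gene (kb), in a panel per gene. Red and blue points rose or fell by height, circles mark regions that also rose by rank, grey points did not pass, and triangles mark gained or lost regions, for which no change is plotted. The 5′ ends lie near 0 in every panel, and the called regions lie away from them.

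DNMT3A, a de novo methyltransferase, had 25 regions, of which 13 were tested. Height fell at 3 of these and rose at 0, beside 12.8% and 11.4% of all regions tested. The steepest fall lay downstream, 17.5 kb past the 3′ end of the gene (chr2:25209624-25210825, hg38). No protein-coding gene body was annotated there, and the nearest MANE Select 5′ end was that of POMC, 41.8 kb away. The height of this region was 0.84, 0.88 and 0.87 in vector replicates 1, 2 and 3. It was −0.33, −0.24 and 0.02 in MyoD-deleted replicates 1, 2 and 3. Each MyoD-deleted value lay under each vector value. The change was −1.05 ± 0.14 (SE, adjusted p = 4.73e-05), a 2.07-fold lower pileup relative to the median region. It is the single region of the 6 that also fell without centring, by 0.86 (adjusted p = 0.00016), and its window holds the E box CAGGTG. By rank its adjusted p was 0.074.

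The other falls lay inside DNMT3A. In intron 4 (chr2:25277971-25279946) the height was 1.28, 1.42 and 1.19 in vector and 0.94, 1.05 and 0.77 in MyoD-deleted libraries, a change of −0.38 ± 0.12 (SE, adjusted p = 0.029). In intron 3 (chr2:25290833-25291831) it was 1.10, 1.26 and 1.49 in vector and 0.90, 0.87 and 0.90 in MyoD-deleted libraries, a change of −0.39 ± 0.12 (SE, adjusted p = 0.026). The groups did not overlap at either, and the windows of both hold CAGCTG. The intron 4 region passed in 3 of 6 fits that left out a library, with an adjusted p of up to 0.15 without vector replicate 2 or MyoD-deleted replicate 1 or 3. The intron 3 region passed in 1 of 6, without vector replicate 1, and reached 0.14 in the rest. Without centring the changes were −0.19 (adjusted p = 0.32) and −0.20 (adjusted p = 0.29). By rank the adjusted p was 0.79 and 0.76. In intron 2, a region 38.0 kb from the 5′ end (chr2:25303577-25304355) was lost, with pileups of 115, 44 and 64 fragments in the vector libraries and no call in any MyoD-deleted library. In intron 1, a region 26.7 kb from the 5′ end (chr2:25314921-25315487) was gained, with pileups of 24, 20 and 16 fragments. The lists give no value where a peak was not called, so neither has a fold change.

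DNMT3B, the other de novo methyltransferase, had 17 regions and 8 tested, with a fall inside the gene and a rise upstream of it. The fall was at exon 14 (chr20:32796728-32797651), with heights of 1.37, 1.68 and 1.81 in vector and 0.96, 1.12 and 1.28 in MyoD-deleted libraries. The change was −0.50 ± 0.13 (SE, adjusted p = 0.0077), and it no longer passed without MyoD-deleted replicate 1 (adjusted p = 0.056) or without centring (−0.31, adjusted p = 0.10). The rise was 34.5 kb upstream, in the body of COMMD7 (chr20:32727412-32728416), with heights of −0.58, −0.76 and −0.52 in vector and 0.55, 0.49 and 0.50 in MyoD-deleted libraries. Each MyoD-deleted value there exceeded each vector value. CAGCTG lies 31 bp from the summit of this region. The change was 1.14 ± 0.15 (SE, adjusted p = 4.34e-05), it passed in 6 of 6 fits that left out a library, and its adjusted p by rank was 0.052. A region 9.49 kb upstream (chr20:32752475-32753130) was gained, with pileups of 15, 27 and 18 fragments. Downstream, at 47.7 kb from the 5′ end, the groups did not overlap either, but the change of 0.55 did not pass (adjusted p = 0.066).

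DNMT1, the maintenance methyltransferase, had 21 regions, of which 11 were tested. Beside 11.4% of all regions tested that rose by height and 4.12% by rank, 3 of the 11 rose by both. All 3 lay upstream of its MANE Select 5′ end. GENCODE's record of DNMT1 runs beyond that 5′ end (chr19:10194953) to the 5′ end of the neighbouring receptor gene S1PR2, and these 3 regions lie in that stretch. They count as gene body by the record and as upstream flank by the MANE Select transcript. At 11.5 kb upstream (chr19:10205997-10206819) the height was −1.25, −1.64 and −1.29 in vector and −0.73, −0.34 and −0.11 in MyoD-deleted libraries, a change of 1.00 ± 0.21 (SE, adjusted p = 0.0021). At 24.9 kb upstream (chr19:10219509-10220427) it was −1.70, −1.28 and −1.52 in vector and −0.30, −0.34 and −0.39 in MyoD-deleted libraries, a change of 1.16 ± 0.19 (SE, adjusted p = 0.00031). Both are low peaks, with pileups of 18 to 34 and 23 to 25 fragments in vector libraries and 35 to 63 and 47 to 52 in MyoD-deleted libraries. At 36.2 kb upstream, at the 5′ end of S1PR2 (chr19:10230719-10231728), the height was 0.42, 0.58 and 1.01 in vector and 1.26, 1.18 and 1.12 in MyoD-deleted libraries, a change of 0.52 ± 0.14 (SE, adjusted p = 0.013). The groups did not overlap at any of the 3. By rank the adjusted p was 0.035, 0.0092 and 0.040, and only the middle region passed by rank in 6 of 6 fits that left out a library. The region 11.5 kb upstream did not pass by rank without vector replicate 2 or 3 or MyoD-deleted replicate 2 or 3 (adjusted p up to 0.12), and the region at S1PR2 passed by rank in 0 of 6 (up to 0.11). By height, the region at S1PR2 did not pass without vector replicate 2 or MyoD-deleted replicate 1 (up to 0.067).

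UHRF1, the recruiter of DNMT1, had 20 regions and 10 tested, with changes in both directions. In intron 16, near the 3′ end (chr19:4959022-4959791), the height was −0.27, −0.68 and −0.62 in vector and −1.10, −1.29 and −1.23 in MyoD-deleted libraries. It fell by 0.68 ± 0.19 (SE, adjusted p = 0.015), and its window holds CAGCTG 1 bp from the summit. The call was lost without vector replicate 1 or MyoD-deleted replicate 2 (adjusted p up to 0.054), and without centring the change was −0.49 (adjusted p = 0.070). In intron 2, 5.76 kb from the 5′ end (chr19:4914859-4915582), the height was 1.21, 1.16 and 1.23 in vector and 1.47, 1.59 and 1.55 in MyoD-deleted libraries. It rose by 0.34 ± 0.11 (SE, adjusted p = 0.026), and the call was lost without vector replicate 2 or any MyoD-deleted replicate (adjusted p up to 0.11). By rank its adjusted p was 0.41, and its mean percentile of fold enrichment was 52.1 in vector and 42.2 in MyoD-deleted libraries, the opposite direction to its height. A region 26.8 kb past the 3′ end lies in the body of KDM4B, a histone demethylase gene (chr19:4988547-4989328). Its height was 0.47, 0.51 and 0.28 in vector and 1.10, 1.19 and 1.02 in MyoD-deleted libraries, a rise of 0.68 ± 0.13 (SE, adjusted p = 0.00071). It also rose by rank (adjusted p = 0.027), though that call held in 1 of 6 fits that left out a library, without vector replicate 2, and reached 0.091 in the others.

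Among the methylcytosine oxidases, TET2 had the largest rise of all 64 tested regions. It also had 3 of the 7 gained regions, beside a gained share of 4.56% over all regions. TET2 had 8 regions, of which 3 were tested. The rise lay 0.853 kb past the 3′ end of the gene record (chr4:105280130-105281130), with heights of −1.53, −2.11 and −2.14 in vector and −0.37, −0.14 and −0.56 in MyoD-deleted libraries. The change was 1.57 ± 0.22 (SE, adjusted p = 6.5e-05), a 2.97-fold higher pileup relative to the median region. It passed by rank (adjusted p = 0.0083), and by both measures in 6 of 6 fits that left out a library. The pileups behind it were 28, 13 and 15 fragments in vector and 45, 60 and 46 in MyoD-deleted libraries, so the vector values rest on few fragments. None of the 4 motifs searched was in its window. Regions were gained in intron 1 (chr4:105186589-105187178; 13, 18 and 24 fragments), in intron 2 (chr4:105194632-105195052; 16, 20 and 13 fragments) and 26.7 kb past the 3′ end (chr4:105306026-105306691; 16, 22 and 25 fragments). None of these 3 was called in a vector library. TET2 had 0 lost regions.

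TET1 had 12 regions and 8 tested. In intron 6 (chr10:68665832-68666909), where the window holds an AP-1 motif, the height was −0.75, −1.22 and −1.40 in vector and −0.33, −0.52 and −0.28 in MyoD-deleted libraries. It rose by 0.75 ± 0.20 (SE, adjusted p = 0.012), and the call was lost without vector replicate 3 or MyoD-deleted replicate 1 (adjusted p up to 0.061). In intron 2 (chr10:68594430-68594970) a region was gained, with pileups of 32, 37 and 38 fragments, the largest among the 7 gained regions.

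TET3 had 21 regions and 7 tested. A region 13.7 kb upstream (chr2:73970613-73971561) had heights of −2.34, −1.90 and −1.87 in vector and −0.90, −0.96 and −0.70 in MyoD-deleted libraries. It rose by 1.19 ± 0.22 (SE, adjusted p = 0.00067) and by rank (adjusted p = 0.020). Pileups were 16, 15 and 18 fragments in vector and 31, 34 and 42 in MyoD-deleted libraries, so the vector values rest on few fragments. With equal numbers of peaks or −log10 q of at least 5 the region was no longer called in all 6 libraries. The rank call of this region was lost without vector replicate 2 or any MyoD-deleted replicate (adjusted p up to 0.074), while its height call held in 6 of 6 fits. The tallest of the regions that fell was in intron 3 of TET3 (chr2:74032123-74033045), with pileups of 314 to 539 fragments. Its height was 2.73, 2.96 and 2.77 in vector and 2.46, 2.25 and 2.60 in MyoD-deleted libraries, a fall of 0.38 ± 0.10 (SE, adjusted p = 0.011). The window holds CAGCTG 2 bp from the summit. The call was lost without vector replicate 2 or MyoD-deleted replicate 2 (adjusted p up to 0.10), and without centring the change was −0.19 (adjusted p = 0.26). In intron 4 (chr2:74051200-74051945) a region was lost, with pileups of 24, 22 and 19 fragments in the vector libraries.

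TDG, the glycosylase, had 7 regions and 4 tested, and 0 of them passed by height or rank in limma, nor at an unadjusted p under 0.05, with values of −0.11 to 0.10. A region at exon 10 (chr12:103986698-103987201) was gained, with pileups of 22, 32 and 22 fragments.

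**Figure D3:**
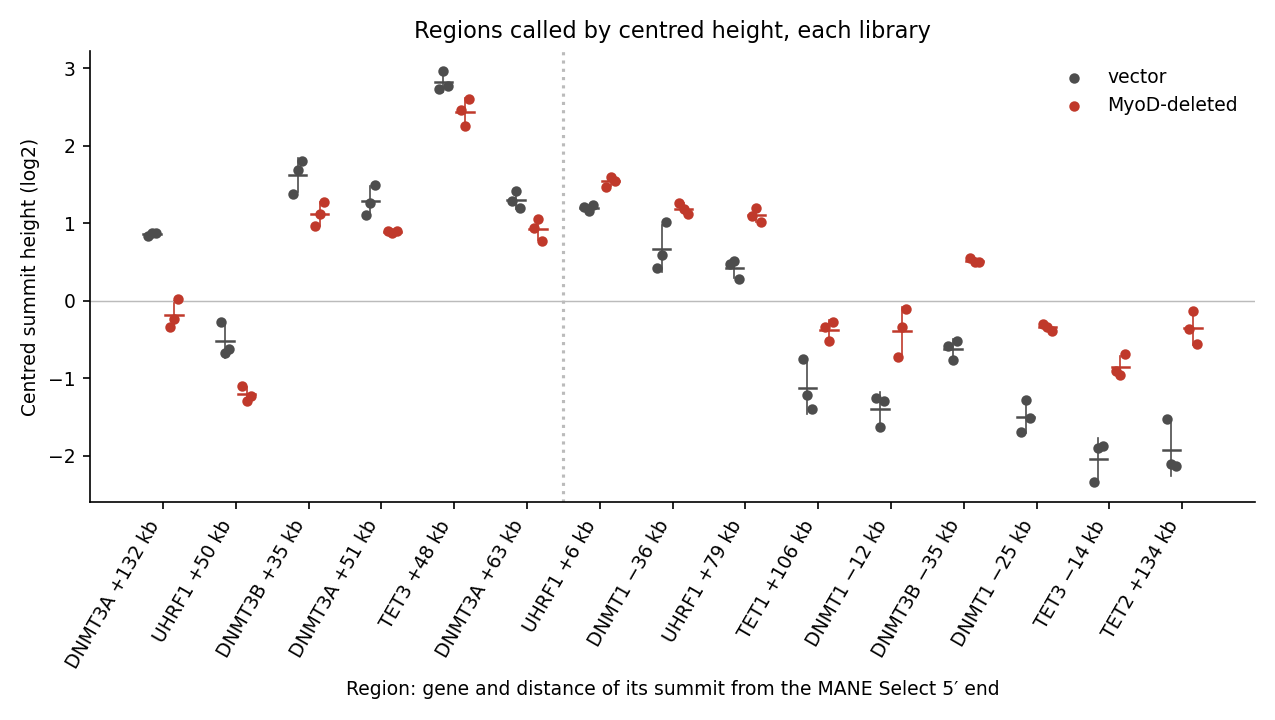
Centred summit height (log2) of the 15 regions called by height, as points for each vector and MyoD-deleted library with means and SD, ordered by change. Each is named by its gene and the distance of its summit from the MANE Select 5′ end, and the dotted line parts the 6 that fell from the 9 that rose. The groups do not overlap in any of the 15, beside 37.7% of all regions tested, but the 15 were chosen by these same heights.

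The bodies of the methyltransferase genes were set beside their 50 kb flanks, as the median height of regions in the body minus that of regions in the flanks in each library. At DNMT3B this value was lower after deletion, going from 2.14, 2.49 and 2.34 in vector to 1.36, 1.07 and 1.38 in MyoD-deleted libraries. The 4 body regions had a median of 1.45 ± 0.15 in vector and 1.17 ± 0.16 in MyoD-deleted libraries, and the 4 flank regions −0.88 ± 0.11 and −0.10 ± 0.13 (SD, n = 3). The difference between the groups was −1.05, with values that did not overlap between groups (exact two-sided permutation test, p = 0.1, and 0.1 after adjustment over 3 genes, the smallest p that 3 against 3 allows). It was −0.69 with flanks of 20 kb and −1.42 with equal numbers of peaks or −log10 q of at least 5. At DNMT1 it was 0.67 with the body of the gene record (exact permutation p = 0.1) and −0.17 with the body of the MANE Select transcript (exact permutation p = 0.4), which places the 3 regions that rose in the flank. The MANE Select body of DNMT1 then holds only 1 tested region, at its 5′ end, beside 10 in the flank, so its median is that single region. At DNMT3A it was 0.49 with the gene record (exact permutation p = 0.1) and 0.07 with the MANE Select transcript (exact permutation p = 0.5). The MANE Select transcript moves the region at the DNMT3A 5′ end, with its summit 0.54 kb upstream, from the body to the flank. With the gene record, the medians of DNMT3A differed by −0.33 in the body and by −0.81 in the flanks. Of the 5 tested flank regions, only the one 17.5 kb past the 3′ end passed by height. Its own change was −1.05, and those of the other flank regions lay between −0.19 and 0.01. The difference of −0.81 is therefore no shift of the flanks as a whole. The direction at DNMT1 and the size at DNMT3A therefore depend on where the gene is taken to start. At DNMT3B both definitions hold the same regions, so the MANE Select transcript gives no second check there. The MANE Select definition was chosen after the data were seen.

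**Figure D4:**
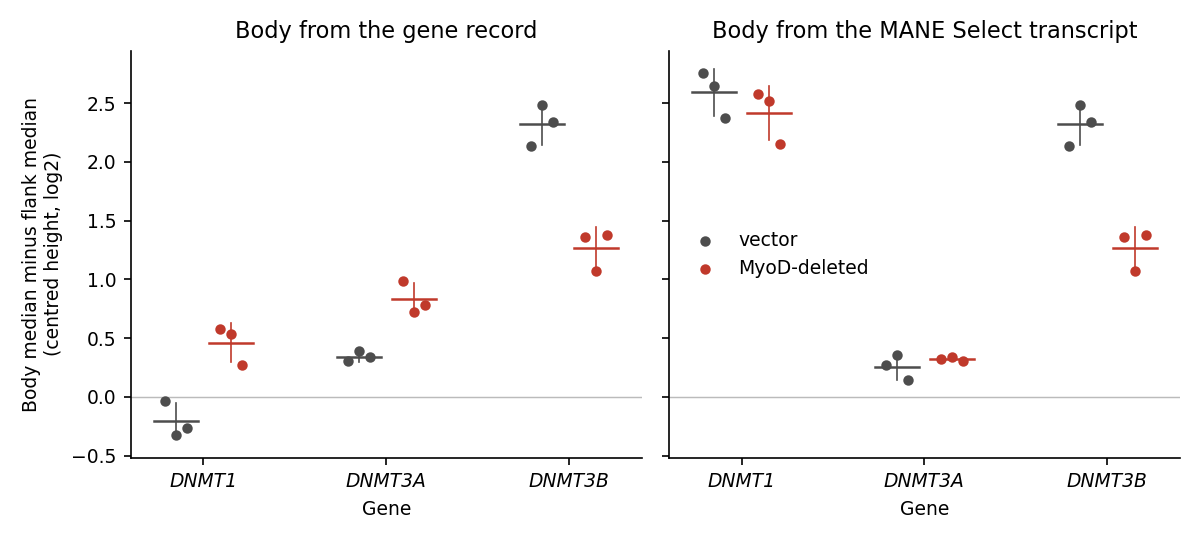
Median centred height of body regions minus that of 50 kb flank regions (log2) for each methyltransferase gene, as points per library with means and SD, with the body from the gene record on the left and from the MANE Select transcript on the right. DNMT3B is lower in MyoD-deleted libraries, with the same values in both panels because both definitions hold the same regions. The DNMT1 and DNMT3A differences on the left are smaller or turned on the right. On the right, the DNMT1 body is 1 region.

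Over all tested regions of a gene, the group means of the median height differed by −0.18 at DNMT3A (0.98 ± 0.19 in vector and 0.80 ± 0.03 in MyoD-deleted libraries, SD, n = 3), by 0.42 at DNMT3B (0.37 ± 0.06 and 0.79 ± 0.08) and by 1.05 at TET2 (−1.40 ± 0.48 and −0.36 ± 0.21). The groups did not overlap at these 3 genes, beside 37.7% of all single regions tested. Such medians were taken for no other genes, so they have no share of their own. The differences at DNMT1, UHRF1, TET1, TET3 and TDG lay between −0.09 and 0.12, with overlapping groups. No test was run on these medians, and they rest on few regions. The middle region need not be the same in both groups, so they differ from the median of the regions' own changes, which was −0.04 at DNMT3A, 0.14 at DNMT3B and −0.03 at TET2. Of the 3 tested TET2 regions, 1 had a positive change and 2 had negative changes that did not pass. Without centring, the difference of every gene is higher by the same 0.19, the shift of the median region. The difference was then 0.011 at DNMT3A, 0.10 at TET3 and 0.19 at TDG, all with the opposite sign. At DNMT3B it was −0.29 with flanks of 20 kb and −0.26 with peaks of −log10 q of at least 5, and with that minimum it was −0.094 at TET2, so both turned in direction.

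The study designed 7 primer pairs for MyoD chromatin immunoprecipitation at the methyltransferase genes, and each primer matched hg38 at 1 place. Of the 7 amplicons, 6 overlapped an ATAC-seq region, and 5 of those regions were tested. Height had fallen at 3 of the 5 and risen at 0, beside 12.8% and 11.4% of all regions tested. None of the 3 falls passed without centring (adjusted p = 0.32, 0.29 and 0.10) or by rank (adjusted p = 0.79, 0.76 and 0.69). Those were the regions of DNMT3A intron 4 (S1, chr2:25278941-25279328), DNMT3A intron 3 (S3, chr2:25291097-25291572) and DNMT3B exon 14 (S3, chr20:32796861-32797180). The amplicon at the DNMT1 5′ end (S1, chr19:10194509-10194832) lay in a region with a change of −0.04 (adjusted p = 0.80), and DNMT3B S2 in a region with a change of −0.17 (adjusted p = 0.40). DNMT3B S1 lay in a region called in 2 vector and 3 MyoD-deleted libraries, and DNMT3A S2 was 1755 bp from the nearest region. These sites were chosen by the study for MyoD binding, so they are not a random draw of regions. The primers of the 3 amplicons in regions that fell and of the DNMT1 amplicon are shown 5′ to 3′, to mark the sites.
DNMT3A S1 forward: ttctgatccagcaggtcttcagt
DNMT3A S1 reverse: ctcctggaacccctttcattagc
DNMT3A S3 forward: tgcaaggaagctgcgtgatg
DNMT3A S3 reverse: cccactggctgcgcttttag
DNMT3B S3 forward: acatgccgggtaagtcctccta
DNMT3B S3 reverse: gccagagagaaacaccagtgaaa
DNMT1 S1 forward: aagaaggggaccccggaaac
DNMT1 S1 reverse: atgtccgcaggcggtaggta

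Motifs were searched on both strands within 100 bp of the summit of each region. CAGCTG was present in 33 of the 131 regions (25.2%), beside 25.1% of all regions, and the AP-1 letters TGACTCA or TGAGTCA in 25 (19.1%), beside 17.9%. Of the 6 regions that fell, 4 held CAGCTG, 2 held CAGGTG or CACCTG, and 0 held AP-1 letters. The UHRF1 intron 16 region held both kinds of E box, and the DNMT3B exon 14 region held neither. Of the 9 that rose, 1 held CAGCTG, 2 held CAGGTG or CACCTG and 3 held AP-1 letters. CAGCTG was in the DNMT3B upstream region, and CAGGTG or CACCTG in the region at S1PR2 and in UHRF1 intron 2. Of the 7 gained regions, 0 held CAGCTG and 4 held AP-1 letters, and of the 2 lost regions 0 held CAGCTG and 1 held CACCTG. Over all regions, CAGCTG was present in 57.1% of those that fell and 15.9% of those that rose, and AP-1 letters in 14.5% and 33.0%. CAGGTG or CACCTG was present in 29.9% of all regions that fell and in 7.08% of those that rose. Among all gained regions, CAGCTG was present in 13.2% and AP-1 letters in 27.4%. Among all lost regions, CAGCTG was present in 54.8% and CAGGTG or CACCTG in 37.8%. GGAATG or CATTCC, the letters bound by TEAD factors, was present in 0 of the 6 that fell and 2 of the 9 that rose, beside 16.6% and 24.3% over all regions that fell and rose. These are matches of letters and not binding sites.

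A list of 23 other genes of the pathway held 227 regions, of which 125 were tested. It covers methyl-CpG readers, partners of the writers, partners and suppliers of the TET enzymes with the methyl donor cycle, and base excision after TDG. By height 6 rose and 6 fell, beside 11.4% and 12.8% of all regions tested. By rank 3 rose and 2 fell, beside 4.12% and 4.67%. Of the 227, 7 were gained and 0 lost, beside 4.56% and 1.78% of all regions. Their median change was 0.04. The regions called both by height and by rank lay near USP7, near SMUG1 and in the downstream flank of MAT2A. USP7 is a deubiquitinase that partners DNMT1 and UHRF1, and its region changed by −1.11 ± 0.24 (SE, adjusted p = 0.0024). SMUG1 is a uracil glycosylase, and its region changed by −0.73 ± 0.13 (SE, adjusted p = 0.00052). MAT2A makes S-adenosylmethionine, and the region in its flank changed by 1.47 ± 0.14 (SE, adjusted p = 2.12e-06). That region lies 51.4 kb from the MAT2A 5′ end, and the nearest 5′ end of a protein-coding gene is that of RNF181, 5.19 kb away.

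Of the 131 regions of the 8 genes, 58 were called in some libraries and were neither tested, gained nor lost. Among all 131, 46 (35.1%) were called in more MyoD-deleted than vector libraries, 19 (14.5%) in more vector libraries, and 24 (18.3%) in a lone library. Over all 105569 regions the shares were 33.7%, 16.2% and 19.3%. Of the 3 MyoD-deleted libraries, 2 held more peaks than any vector library. With equal numbers of peaks per library, 5 regions were gained and 2 were lost.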

How the data were processed

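ATAC-seq libraries of RH30 cells, 3 vector and 3 MyoD-deleted, were grouped by the sample labels. Read pairs were mapped by the authors to hg38 with Rsubread, and peaks from MACS2 were deposited as a list per library, without pooling. FastQC and bcl2fastq 2.20 stand in the submitters' processing notes. Fold enrichment, as deposited, is a ratio of summit pileup to the local background within a library. The deposited −log10 p and −log10 q values are those of the summit. The study's methods state that blacklisted regions were removed with an exclusion list for hg38, without saying whether the deposited lists were written after that step.

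The mitochondrial peak of each library (1 each) was left out. The whole-number pileup was recovered from fold enrichment and −log10 p for 100% of peaks. The read depth is unknown, and the smallest background of a library stands in for it. Touching or overlapping peaks were merged. The inverse-normal rank of fold enrichment and the centred height were compared with limma 3.58.1 (lmFit, eBayes with a trend, no block) in R 4.3.3, two-sided, with Benjamini-Hochberg adjustment over 47885 regions. P-values measure the spread between the libraries, which may be partly technical. Body minus flank values were compared by an exact permutation test over 20 assignments.

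Regions described in full are those that passed either test, were gained or lost, hold a 5′ end or overlap a study amplicon, and pathway genes those that passed both tests. Members and lists were chosen with earlier results of these data known. Alternatives were equal numbers of peaks, a minimum −log10 q of 5, 50% coverage of a region, the gene body alone, 20 kb flanks, ranks of −log10 p, no centring, centring on regions within 2 kb of 5′ ends, the replicate block and each library left out. Steps were tested on simulated data. Python 3.11.15, pandas 2.3.3, scipy 1.17.1, numpy 2.4.6, pysam 0.24.0, samtools 1.23.1, bedtools 2.31.1 and matplotlib 3.10.9 were used.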

Additional observations from a re-analysis of the deposited data

How the results depend on the processing

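No called region reversed its direction in the alternative runs that still tested it. The minimum −log10 q left out the TET2 rise past the 3′ end and the upstream TET3 rise. Equalizing the peak counts left out that TET3 region as well. The 50% coverage rule left out both of these regions, the DNMT1 region 24.9 kb upstream and the UHRF1 intron 16 region. Those runs therefore could not check these regions. The 15 height calls all held when centred on regions at 5′ ends, and 10 of them held without centring. By rank, 3 regions rose when peaks had to cover 50% of a region and 3 in gene bodies alone, and 2 fell when −log10 p was ranked. By height, 16 rose and 1 fell without centring, and 5 rose in gene bodies alone. Leaving out a library gave 2 to 5 rises and 0 to 1 falls by rank, 7 to 10 rises and 3 to 8 falls by height, 7 to 14 gained and 2 to 4 lost regions.

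The DNMT1 body minus flank change was −0.17 with the MANE Select transcript, chosen after seeing the data, where the body is 1 region. Leaving out a library gave 0.61 to 0.76 at DNMT1, 0.36 to 0.54 at DNMT3A and −1.22 to −0.95 at DNMT3B, where 20 kb flanks gave −0.69 and equal numbers of peaks or −log10 q of at least 5 gave −1.42. Without centring, the median change of every gene is higher by the same 0.19, the shift of the median region. It was 0.29 at DNMT1, 0.011 at DNMT3A, 0.62 at DNMT3B, 0.31 at UHRF1, 0.30 at TET1, 1.24 at TET2, 0.10 at TET3 and 0.19 at TDG. With 20 kb flanks the median changes were 0.52 at DNMT1 and −0.29 at DNMT3B. With −log10 q of at least 5 they turned to −0.26 at DNMT3B and −0.094 at TET2, and with equal numbers of peaks to −0.28 at DNMT3B. Leaving out a library gave −0.04 to 0.21 at DNMT1, −0.50 to −0.074 at DNMT3A, 0.38 to 1.19 at DNMT3B, 0.07 to 0.16 at UHRF1, 0.05 to 0.19 at TET1, 0.81 to 1.29 at TET2, −0.19 to −0.04 at TET3 and −0.03 to 0.02 at TDG. The alternatives at 20 kb and with fewer peaks test fewer regions, and the cause of the remaining differences was not tested.

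With the replicate number as a block, 4 regions rose and 0 fell by rank, and 9 rose and 7 fell by height. To look for pairs, the group mean of each region was subtracted from each library. These deviations of same-numbered libraries correlated at −0.04, −0.20 and 0.09 for height, so the numbers were not taken as pairs. By the same deviations, not every library correlated best with its own number. Pileups near 20 fragments limit the low peaks, and a peak that was not called has no value.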
